A study of Homo sapiens with 15 samples.

Results

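The response of A549 cells to interleukin-4 (IL4) alone was described across all genes, from the 3 libraries of cells given IL4 and the 3 libraries of untreated cells. These 6 of the 15 libraries in the series were chosen by their labels. A549 is an epithelial line grown from a human lung adenocarcinoma, and the labels call it alveolar type II like. The IL4 group received 10 ng/ml of the cytokine for 48 h and the untreated group did not. All cells grew in the same serum-containing medium and were a single line, and whether the untreated wells received a vehicle was not given in the sources used here. Of the other 9 libraries, all with IL4, 3 had Compound A, 3 a control siRNA and 3 an ALOX15 siRNA. They entered only the filter on low counts, the scaling and the shared estimate of the spread, and the control siRNA group is also set beside IL4 alone near the end.

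IL4 is a cytokine of type 2 immunity, made by T helper cells, mast cells and basophils. On epithelial cells it binds IL4R paired with IL13RA1. The JAK kinases bound to these chains then phosphorylate STAT6, which dimerises, enters the nucleus and binds DNA at palindromes made of TTC and GAA. In airway epithelium this route is known for eotaxins, 15-lipoxygenase, mucus-associated proteins and matrix proteins such as periostin, and for feedback inhibitors of the CISH and SOCS family.

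The 250 bases before the RefSeq start of 3 strongly raised genes are shown first, because they differ in such palindromes. Capitals mark each match of TTCNNNGAA or TTCNNNNGAA. Both motifs read the same on both strands. Matches of the 2 motifs could share bases, and none of those shown do. The windows are on the minus strand of GRCh38.p14, written 5′ to 3′: CISH at chr3:50611775-50612024, ITLN1 at chr1:160885181-160885430 and CCL26 at chr7:75789747-75789996.
CISH: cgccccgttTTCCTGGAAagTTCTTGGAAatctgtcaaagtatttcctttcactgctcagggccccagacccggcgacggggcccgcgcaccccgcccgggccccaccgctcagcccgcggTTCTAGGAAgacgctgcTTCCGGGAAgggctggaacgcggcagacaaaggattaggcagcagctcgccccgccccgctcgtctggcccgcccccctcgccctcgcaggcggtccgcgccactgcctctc
ITLN1: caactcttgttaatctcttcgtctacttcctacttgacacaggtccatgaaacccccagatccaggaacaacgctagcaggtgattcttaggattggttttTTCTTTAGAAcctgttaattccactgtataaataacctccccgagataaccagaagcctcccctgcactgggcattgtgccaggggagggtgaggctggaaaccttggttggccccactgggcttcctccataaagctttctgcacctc
CCL26: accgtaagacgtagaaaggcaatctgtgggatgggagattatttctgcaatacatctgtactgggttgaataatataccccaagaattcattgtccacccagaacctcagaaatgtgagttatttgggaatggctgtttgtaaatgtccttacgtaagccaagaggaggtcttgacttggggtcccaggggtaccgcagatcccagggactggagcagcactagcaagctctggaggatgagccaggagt
CISH held 4 matches of TTCNNNGAA, whose first bases lay 241, 230, 129 and 112 bases before the start, and none of TTCNNNNGAA. Which STAT or other protein binds any of the matches was not tested. ITLN1 held 1 match of TTCNNNNGAA, 149 bases before its start. CCL26 held no match in this window, which says only that these letters are not there. Of 20 genes that were markers or among the largest rises, 14 had a window in the RefSeq table and 4 of those held a match, the other two being CCL24 and SLC7A8. Over windows reaching from 250 bases before to 50 after the start, TTCNNNGAA was present in 7.66% of all 35116 windows and in 6.35% of those of genes tested. Its share was 10.5% in the windows of genes that rose at least 2-fold (31 of 295) and 7.14% in those of genes that fell at least 2-fold (6 of 84). For TTCNNNNGAA the shares were 6.44%, 4.89%, 6.10% and 4.76% in the same order. A gene can have several windows, and these shares are a description without a test. As many as 4 matches of TTCNNNGAA occurred in 7 of all the windows, 0.0199%, and CISH was 1 of them.

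The estimated counts summed to between 6694576 and 11031246 in the untreated libraries and to between 7108429 and 7728912 with IL4. The labels do not say that replicates came from separate cultures, and the spread that p-values rest on may therefore be technical. In the IL4 group, replicate 1 lay apart from the other two. Its counts differed from those of IL4 replicates 2 and 3 with a chi-square per degree of freedom of 9.66 and 13.0, while replicates 2 and 3 differed with 2.39. Untreated replicate 1 also lay further from its mates, at 5.17 from each, while untreated replicates 2 and 3 differed by 1.59. Of 10676 genes at 5 or more CPM (counts per 1000000 counts), 12.7% lay at least 0.5 log2 units from the mean of the other two in IL4 replicate 1, against 0.905% to 4.16% in the other libraries. These departures followed the GC content of the transcripts. Over quintiles of genes from the lowest to the highest GC content, the median departure of IL4 replicate 1 was -0.31, -0.15, -0.01, 0.16 and 0.34 log2 units. In untreated replicate 1 the same medians were -0.10, -0.07, -0.01, 0.07 and 0.19. The median change with IL4 followed too, from -0.15 in the lowest quintile to 0.13 in the highest, and from -0.05 to 0.00 without IL4 replicate 1. In the lowest quintile 109 genes rose and 513 fell, and in the highest 437 rose and 84 fell. What produced the trend was not tested. The single genes that departed furthest in IL4 replicate 1 were mostly read-through or near-copy genes with counts that were not whole, such as COMMD3-BMI1, at 0 CPM there and 17.2 and 22.5 CPM in its mates, and none of these 16 genes passed the test. Among genes with whole counts, the transcript for the mitochondrial ATP synthase subunit ATP5D was at 44.8, 20.03 and 19.6 CPM in IL4 replicates 1, 2 and 3.

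**Figure D1:**
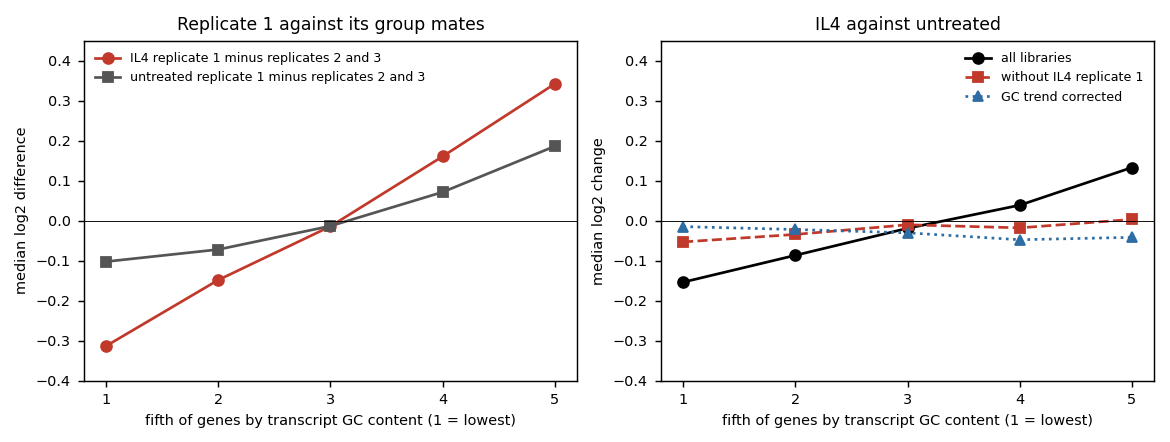
Left, the median log2 difference of replicate 1 from the mean of replicates 2 and 3, in quintiles of genes by transcript GC content, for the IL4 group (red) and the untreated group (grey). Right, the median log2 change with IL4 in the same quintiles for all libraries, without IL4 replicate 1, and after a correction of each library's GC trend. The slope with all libraries runs from -0.15 to 0.13, and a smaller one, from -0.05 to 0.00, remains without IL4 replicate 1. The corrected line stays within 0.06 of 0, which the correction itself brings about.

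The 4 marker genes of the response were near silent without IL4 and rose in each of the 3 IL4 libraries. Levels are CPM scaled by the TMM method and are given in the order of replicates 1, 2 and 3. CCL26, which encodes the eosinophil attractant eotaxin-3, stood at 0.627, 0.550 and 1.34 CPM untreated and at 119.6, 90.3 and 84.7 CPM with IL4. CISH, a feedback inhibitor that binds activated cytokine receptors, stood at 1.52, 0.771 and 2.54 CPM untreated and at 52.1, 35.5 and 30.5 CPM with IL4. For both genes the lowest IL4 library lay more than 10 times above the highest untreated one. DUOX2, an oxidase that releases hydrogen peroxide at epithelial surfaces, was at 0, 0 and 0.149 CPM untreated and at 16.8, 11.1 and 12.4 CPM with IL4. ALOX15, the 15-lipoxygenase that oxygenates arachidonic and linoleic acid, was at 0, 0.110 and 0.299 CPM untreated and at 6.00, 4.71 and 5.09 CPM with IL4. In none of the 4 did the groups overlap, and in all 4 IL4 replicate 1 was the highest library. The log2 change of CCL26 was 6.94 (SE 0.20, adjusted p = 3.7e-15 by edgeR's quasi-likelihood test with Benjamini-Hochberg adjustment) and 6.78 without IL4 replicate 1. For CISH it was 4.67 (SE 0.28, adjusted p = 1.4e-09 by the same test) and 4.42 without that library. DUOX2 counts were not whole in 1 library. The untreated libraries held 1 DUOX2 count and 3 ALOX15 counts in all, so their sizes are ratios of summed counts, 361 (95% exact counting interval 64.3 to 14300) and 47.2 (15.8 to 232). These intervals cover counting error only. In bulk RNA, more cells expressing a gene and more RNA per cell cannot be told apart, here and for every gene below.

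**Figure D2:**
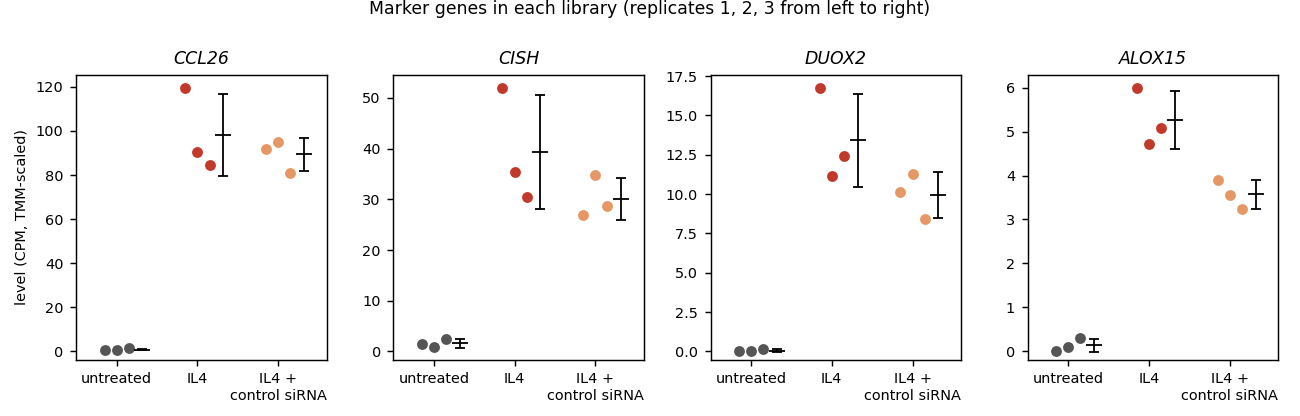
Levels (TMM-scaled CPM, linear axes) of CCL26, CISH, DUOX2 and ALOX15 in each library of the untreated, IL4 and IL4 with control siRNA groups. Points are libraries, replicates 1 to 3 from left to right, with the mean and SD beside them; in all 4 panels IL4 replicate 1 is the highest library, and the untreated points do not exceed 2.54 CPM.

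Across all genes, as many fell as rose, and the large changes were mostly rises. Of 12795 genes tested, 2925 passed an adjusted p of 0.05 (22.9%), 1435 of them higher with IL4 (11.2%) and 1490 lower (11.6%). A change of at least 2-fold was reached by 275 genes that rose (2.15%) and by 83 that fell (0.649%). The 3 libraries of one group lay wholly above or below those of the other for 4289 genes (33.5%), and 2742 genes were both called and separated in this way (21.4%). Most genes named below for a large change or from a list were picked under a rule that required this separation. Others were picked after their values were seen, so the separation of such genes is not a further result. The median log2 change over all genes tested was -0.02. The shares of each gene list are to be read against the 11.2% and 11.6%. The split of calls depended on the libraries used: 49.1% of calls were rises with all libraries, 60.6% when only the 6 untreated and IL4 libraries were fitted (889 rose and 577 fell), 59.6% without untreated replicate 2 (1182 and 800) and 58.1% without untreated replicate 3 (1244 and 896). Without IL4 replicate 1, 1386 rose and 1414 fell, and 2283 of these calls were shared with the full fit in the same direction. With the replicate number as a block, the 6-library fit gave 1440 rises and 1152 falls.

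**Figure D3:**
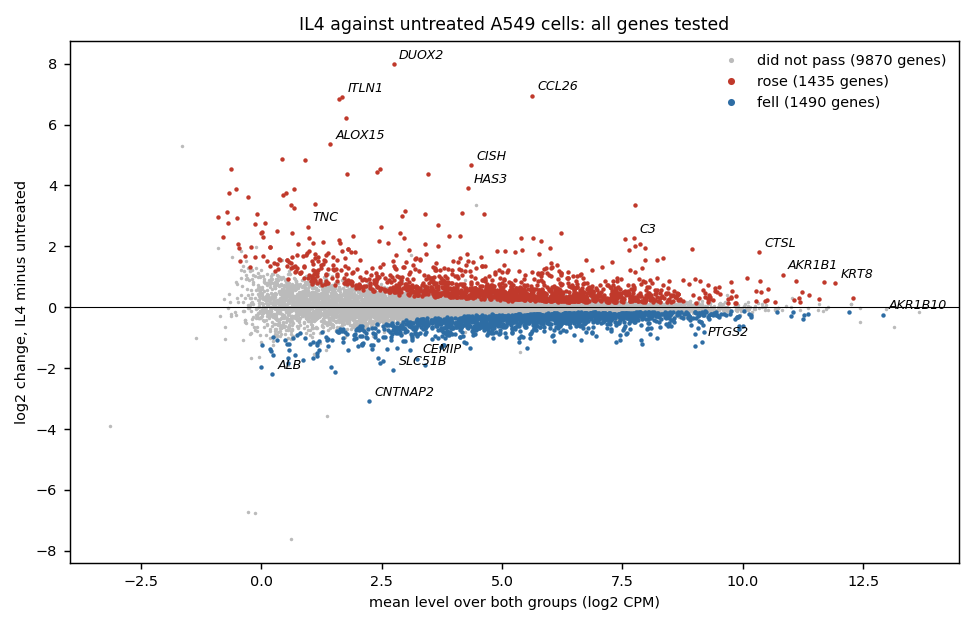
Log2 change with IL4 (y axis) against the mean level over both groups (x axis, log2 CPM) for each of the 12795 genes tested. Red points rose (1435), blue points fell (1490) and grey points did not pass; the rises reach a log2 change of 7.98 (DUOX2), and the falls reach -3.09 (CNTNAP2).

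The receptor chains and STAT6 itself did not pass the test, while JAK1, JAK2, STAT3 and the feedback inhibitor CISH rose. IL4R, the chain that binds IL4, was at 19.8, 16.7 and 15.5 CPM untreated and at 25.6, 18.5 and 21.0 CPM with IL4, so the groups overlapped (log2 0.31, SE 0.14, adjusted p = 0.12). It passed without IL4 replicate 2 (log2 0.44, adjusted p = 0.041). Its partner IL13RA1 had a log2 change of 0.04 (SE 0.06), STAT6 one of 0.06 (SE 0.07) and TYK2 one of 0.03 (SE 0.10), and none of them passed, although IL13RA1 did with the GC correction (log2 0.16, adjusted p = 0.021). IL2RG, the partner chain used by blood cells, had 1 count in all untreated libraries and 3 with IL4 and was not tested, and JAK3, which binds it, did not pass (log2 -0.42, SE 0.33). JAK1, the kinase carried by IL4R, rose from 195.2, 228.9 and 230.9 CPM to 269.9, 287.0 and 309.0 CPM. JAK2 rose from 14.8, 16.4 and 18.5 CPM to 23.7, 25.4 and 26.6 CPM, a log2 change of 0.62 (SE 0.11, adjusted p = 0.00027). In both kinases all IL4 libraries lay above all untreated ones. Of 52 tested genes for cytokine receptors, JAKs, STATs, SOCS proteins and their regulators, 18 rose (34.6%) and 6 fell (11.5%), with a median of 0.22. The share that fell is close to the 11.6% of all genes that did, and the 6 became 3 without untreated replicate 2, without IL4 replicate 2, or in the fit of the 6 libraries alone.

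Within this list the largest rise after CISH was that of IL31RA, the receptor chain for the itch cytokine IL31. It went from 1.07, 0.881 and 1.34 CPM to 5.18, 4.84 and 5.09 CPM, 4.61-fold (adjusted p = 1.4e-06). IL6ST, the signal-transducing chain gp130 shared by receptors of the IL6 family, rose from 863.6, 970.2 and 961.0 CPM to 1235.5, 1861.6 and 1954.8 CPM. IL4 replicate 1 was the lowest of its group here, and the log2 change of 0.85 was 1.03 without it. IL6ST counts were not whole in 5 of the 6 libraries, so some reads may belong to another gene. IL6R, the chain that pairs with it for IL6, fell from 13.4, 11.1 and 12.8 CPM to 6.27, 7.86 and 6.13 CPM (log2 -0.88, SE 0.17). IRS2, an adaptor that couples the IL4 receptor to PI3-kinase, fell from 257.7, 245.4 and 237.5 CPM to 155.1, 122.0 and 125.8 CPM (log2 -0.88, SE 0.08). STAT3, the main factor downstream of gp130, rose by a log2 change of 0.38 (SE 0.06). SOCS1, a feedback inhibitor known from IL4 signalling, held 3 counts untreated and 22 with IL4, a ratio of 8.73 (95% exact counting interval 2.62 to 45.6), too few to be tested.

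Among cytokines and chemokines, the eotaxins CCL26 and CCL24 rose, as did IL11, and CXCL8 and TNFSF15 fell. CCL11, also an eotaxin, had no count in the 6 libraries. Of 21 tested, 9 rose (42.9%) and 5 fell (23.8%), with a median log2 change of 0.11. CCL24, the second eotaxin, was at 0, 0.110 and 0.149 CPM untreated and at 3.82, 2.09 and 1.96 CPM with IL4. With 2 counts in the untreated libraries and 59 with IL4, its ratio was 35.1 (95% exact counting interval 9.30 to 297). IL11, a cytokine of the IL6 family that signals through gp130, rose from 4.39, 5.94 and 5.82 CPM to 42.8, 41.5 and 48.4 CPM, 8.34-fold (log2 3.06, SE 0.13, adjusted p = 5.1e-13). The separation of its groups was wide against the spread within each. TNFSF15, a ligand of the death receptor DR3 on T cells, fell from 23.8, 25.1 and 27.0 CPM to 11.04, 12.2 and 11.2 CPM (log2 -1.13, SE 0.11, adjusted p = 2.1e-07). CXCL8, the main neutrophil attractant, fell from 27.8, 34.5 and 37.6 CPM to 16.5, 22.4 and 27.1 CPM (log2 -0.58, SE 0.14, adjusted p = 0.0049), and did not pass when only the 6 libraries were fitted, its adjusted p running from 0.00019 to 0.07 over the settings tried. Counts in the list were small and moved with single libraries: 5 rose without untreated replicate 2, and 3 fell without any one of the 3 untreated libraries, without IL4 replicate 2, or by DESeq2. With the 6 libraries alone 4 rose and 2 fell, or 3 fell with the replicate block in that fit.

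Of genes known from airway epithelium exposed to type 2 cytokines, 23 of 57 could be tested, and 14 rose (60.9%) and 3 fell (13%), with a median log2 change of 1.36. This list was drawn from earlier knowledge of IL4 and IL13 responses. It was also chosen with earlier results of these data known and holds CCL26, DUOX2 and ITLN1, so its shares are not independent support. ITLN1, a lectin secreted by goblet cells, was at 0, 0.110 and 0 CPM untreated and at 7.90, 5.11 and 6.13 CPM with IL4, a ratio of 171 (95% exact counting interval 30.3 to 6820). CST1, a secreted cystatin that is raised in type 2 airway disease, rose from 40.8, 36.4 and 39.6 CPM to 474.8, 372.0 and 342.4 CPM, 10.2-fold (log2 3.35, SE 0.10, adjusted p = 8.1e-15). Its counts were not whole in 5 of 6 libraries, and cystatin genes are close copies, so its level is uncertain. ANO1, the calcium-activated chloride channel of airway cells, rose from 0.627, 0.330 and 0.299 CPM to 12.8, 11.5 and 7.44 CPM, 23.0-fold (log2 4.53, SE 0.34). No library of either group overlapped the other for these 3 genes, as the naming rule required for ITLN1 and ANO1. CST1 was chosen after its values were seen. SERPINB4, a protease inhibitor known as a type 2 marker, held 3 counts untreated and 26 with IL4 (ratio 10.3, 3.16 to 53.3) and was not tested. Neither were CLCA1, with no count in any of the 6 libraries, nor SLC26A4, the pendrin anion exchanger, with 8 counts untreated and 18 with IL4. The antisense transcript SLC26A4-AS1 was at 0, 0 and 0.149 CPM untreated and at 4.22, 6.55 and 7.44 CPM with IL4, and without a stated strand setting its reads cannot be told from those of SLC26A4.

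Genes tied to goblet cells moved in both directions: ITLN1, given above, rose, FOXA3 fell, and the call of MUC5AC depended on IL4 replicate 1. MUC5AC, the inducible gel-forming mucin, was at 468.8, 480.5 and 405.4 CPM untreated and at 470.5, 306.8 and 302.1 CPM with IL4, where replicate 1 alone lay within the untreated range (log2 -0.33, SE 0.16, adjusted p = 0.16). Without IL4 replicate 1 it passed as a fall (log2 -0.57, adjusted p = 0.0070), as it did with the GC correction (log2 -0.50, adjusted p = 0.017), and its adjusted p without any one of the other 5 libraries was 0.19 to 0.46. IL4 with control siRNA gave 322.6, 335.5 and 320.2 CPM (log2 -0.47, adjusted p = 0.058, against the same untreated libraries). FOXA3, a factor of goblet cell differentiation, fell from 11.2, 8.15 and 10.0 CPM to 6.00, 5.24 and 4.30 CPM (log2 -0.92, SE 0.19). SPDEF, another such factor, fell from 44.1, 30.4 and 34.9 CPM to 30.7, 24.6 and 16.2 CPM, with groups that overlapped. Its log2 change was -0.63 (SE 0.18, adjusted p = 0.021 by edgeR's quasi-likelihood test) and -0.85 without IL4 replicate 1. The SPDEF call was lost in several settings, among them the fit of the 6 libraries alone (adjusted p = 0.11). PDK4, a kinase that blocks pyruvate oxidation, fell from 325.3, 347.0 and 327.8 CPM to 131.4, 156.6 and 148.4 CPM (log2 -1.20, SE 0.08). The 3 falls of the list became 6 without IL4 replicate 1 and also 6 with the GC correction.

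Several of the largest rises lay outside these lists. HAS3, which makes hyaluronan at the cell surface, rose from 2.95, 2.31 and 1.79 CPM to 42.4, 37.7 and 30.5 CPM, 15.02-fold (log2 3.91, SE 0.16, adjusted p = 4.6e-13). CEMIP, which is needed to break hyaluronan down, fell from 14.2, 14.9 and 14.2 CPM to 4.63, 4.45 and 4.30 CPM, 3.23-fold (log2 -1.69, SE 0.14, adjusted p = 2.2e-08). The synthase and the degradation gene thus moved in opposite directions, each with the separated groups that the naming rule required. KIRREL3, a cell adhesion protein of the immunoglobulin family, rose 20.7-fold, from 1.25, 0.991 and 0.597 CPM to 23.7, 20.6 and 18.7 CPM. SLC7A8, a carrier of large neutral amino acids, rose 20.9-fold, from 0.179, 0.330 and 0.448 CPM to 8.59, 6.55 and 4.57 CPM. In both genes the lowest IL4 library lay well above the highest untreated one, and the naming rule required separated groups. SECTM1, a secreted and transmembrane protein that binds CD7 on lymphocytes, rose 13.5-fold and stood between 2.35 and 2.88 CPM with IL4; its log2 change of 3.75 was 5.25 without untreated replicate 2. FAM26E, SMPD3, NPY6R and PIGR had 1 or 2 counts in all untreated libraries. Their ratios were 90.5 (95% exact counting interval 24.6 to 754), 33.3 (5.51 to 1360), 17.9 (4.53 to 154) and 16.1 (4.04 to 139). SMPD3 was at 2.18, 0.524 and 1.04 CPM with IL4, and its fitted log2 change of 4.55 was 3.91 without IL4 replicate 1 and 6.30 without untreated replicate 3, the single library with a count. SMPD3 is a neutral sphingomyelinase, PIGR carries polymeric immunoglobulin across epithelia, FAM26E is a relative of the calcium homeostasis modulator channels and NPY6R is a neuropeptide Y receptor pseudogene in humans. TCAF2, a partner of the TRPM8 channel, rose 12.8-fold, with counts that were not whole in 3 libraries, and its log2 change of 3.68 was 4.36 without untreated replicate 2.

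**Figure D4:**
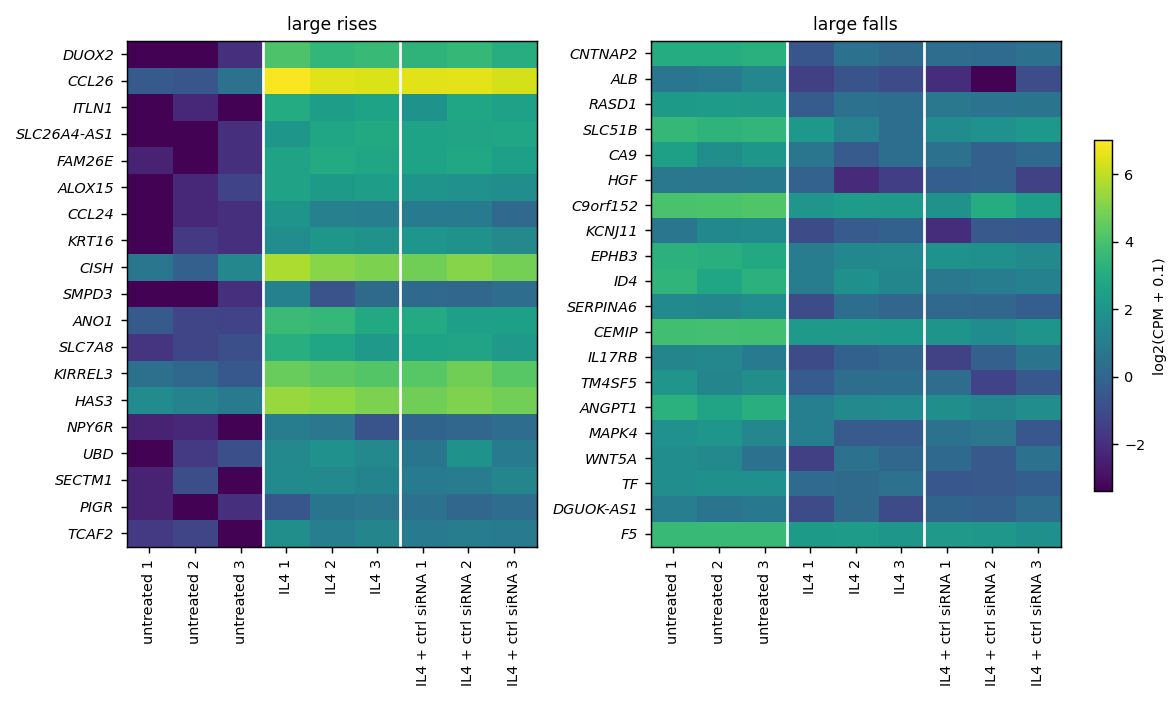
Levels in each library, as log2(CPM + 0.1), of genes with the largest rises (left) and falls (right) with IL4 among called genes with a mean of 1 CPM or more in either group and with groups that were fully separated. Columns are the 3 untreated, 3 IL4 and 3 IL4 with control siRNA libraries. The rule fixes the contrast between the first 2 blocks. The third block entered the calls only through the filter, the scaling and the shared estimate of the spread. Its values lie on the same side of the untreated ones as those of the second block, but not always at the same level. For ALOX15, CCL24, TCAF2, CEMIP and TF all control siRNA libraries lay below all IL4 libraries, and for RASD1 and EPHB3 above them.

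Matrix genes rose across several lists, of collagens, fibrillins, a hemidesmosomal integrin and secreted proteases. Of 24 tested fibrillar and basement membrane collagen genes, 17 rose (70.8%) and 1 fell (4.17%), with a median log2 change of 0.65. COL5A1, a fibrillar collagen that starts fibrils, rose from 13.2, 14.9 and 15.7 CPM to 76.3, 64.9 and 67.7 CPM, 4.82-fold (log2 2.27, SE 0.12, adjusted p = 8.6e-12). COL7A1, which forms the anchoring fibrils under epithelia, rose from 95.1, 95.8 and 120.2 CPM to 427.6, 354.8 and 402.6 CPM, 3.83-fold (log2 1.94, SE 0.14). COL17A1, the transmembrane collagen of hemidesmosomes, rose 3.72-fold, from 3.22, 4.51 and 2.84 CPM to 16.5, 12.0 and 11.3 CPM. All 3 were separated without overlap, which the naming rule required for COL5A1 and COL7A1. COL17A1 was chosen after its values were seen. COL1A1, the chain of type I collagen, rose from 7.61, 5.28 and 6.87 CPM to 22.5, 15.8 and 15.8 CPM (log2 1.44, SE 0.17). It is also a fibroblast marker, and that list is given with the other cell types below. COL14A1 had 3 counts untreated and 25 with IL4 (ratio 9.92, 95% exact counting interval 3.03 to 51.3). The single fall was that of COL21A1, at 3.13, 3.19 and 4.18 CPM untreated and 2.18, 1.57 and 1.17 CPM with IL4 (log2 -1.07, SE 0.29, adjusted p = 0.0099). It did not pass without untreated replicate 3 (log2 -0.92), and its adjusted p ran from 0.0043 to 0.051 over the settings tried.

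Among 22 enzymes and chaperones that process and crosslink collagen, 8 rose (36.4%) and none fell, with a median of 0.24. Without IL4 replicate 2, 1 fell. TGM2, the tissue transglutaminase that crosslinks matrix proteins, rose from 220.5, 204.0 and 192.0 CPM to 879.5, 783.5 and 663.6 CPM, 3.77-fold (log2 1.91, SE 0.09, adjusted p = 1.7e-11). BMP1, the protease that cuts the C-terminal propeptides from procollagen, rose from 34.7, 34.5 and 37.0 CPM to 93.9, 76.5 and 86.9 CPM, 2.43-fold. SPARC, a collagen-binding matrix protein, rose from 1.16, 1.87 and 0.896 CPM to 2.73, 3.27 and 3.13 CPM, 2.27-fold. The 3 genes were higher in each IL4 library than in each untreated one, as the naming rule required.

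Of 52 tested laminins, integrins and matrix glycoproteins, 23 rose (44.2%) and 4 fell (7.69%), with a median of 0.26. FBN1 and FBN2, the fibrillins that build microfibrils, rose together. FBN1 went from 17.99, 16.5 and 16.0 CPM to 80.1, 85.8 and 81.7 CPM, 4.87-fold (log2 2.28, SE 0.08, adjusted p = 8.1e-15). FBN2 went from 89.5, 89.1 and 75.7 CPM to 348.2, 353.1 and 337.1 CPM, 4.07-fold (log2 2.02, SE 0.07). For both the SE was small against the change, and IL4 replicate 1 did not stand out. TNC, the wound matrix protein tenascin C, rose 6.26-fold, from 0.358, 0.550 and 0.746 CPM to 2.73, 3.93 and 3.39 CPM. ITGB4, the hemidesmosomal integrin chain, rose 3.10-fold, from 165.5, 152.5 and 156.7 CPM to 561.7, 458.8 and 451.5 CPM. With COL17A1 it is a component of the hemidesmosome. VCAN, a large proteoglycan, fell from 387.6, 447.1 and 433.0 CPM to 266.1, 280.7 and 289.1 CPM (log2 -0.60, SE 0.06). CTGF, a matricellular protein also called CCN2, fell from 90.8, 84.2 and 80.9 CPM to 61.9, 60.6 and 65.0 CPM (log2 -0.45, SE 0.07). The 4 falls became 2 in the fit of the 6 libraries alone.

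Of 46 tested matrix proteases and inhibitors, 20 rose (43.5%) and 5 fell (10.9%), with a median of 0.34. CTSL, the lysosomal and secreted cysteine protease cathepsin L, rose from 565.5, 582.1 and 568.0 CPM to 1943.3, 2032.2 and 2045.0 CPM. That was 3.51-fold (log2 1.81, SE 0.04, adjusted p = 1.2e-16). PLAU, the urokinase that activates plasminogen, rose 2.91-fold, from 55.2, 55.4 and 54.5 CPM to 158.6, 165.4 and 157.3 CPM. Its log2 change was 1.54 (SE 0.06), and each IL4 library lay above each untreated one. MMP28, a metalloprotease of epithelia, rose 4.02-fold, from 5.73, 4.62 and 4.78 CPM to 26.4, 19.0 and 16.3 CPM. TIMP3, a matrix-bound inhibitor of metalloproteases, fell from 5.19, 6.72 and 5.97 CPM to 2.59, 1.96 and 3.13 CPM (log2 -1.21, SE 0.25). SERPINA1, the antitrypsin that blocks neutrophil elastase, fell from 6.98, 7.27 and 11.5 CPM to 5.31, 4.06 and 3.52 CPM (log2 -0.97, SE 0.22).

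Keratins rose at low and at high levels, while few junction genes rose. Of 14 tested keratins, 7 rose (50%) and 2 fell (14.3%), with a median of 0.48. KRT6A, a keratin of stressed and regenerating epithelia, rose from 0.498, 0.440 and 0 CPM to 4.22, 4.32 and 3.52 CPM, 10.5-fold (log2 3.39, SE 0.36). KRT6A counts were not whole in 1 library. Its near-copy KRT6C was at 0.448 CPM in untreated replicate 3 and at 0 in the other libraries compared, so the size of the KRT6A rise is uncertain. KRT16, the partner of KRT6A, was at 0, 0.220 and 0.149 CPM untreated and at 3.13, 4.19 and 3.65 CPM with IL4, a ratio of 32.9 (95% exact counting interval 10.9 to 163). KRT8 and KRT18, the pair of simple epithelia, rose by log2 values of 0.78 (SE 0.08) and 0.84 (SE 0.06), while KRT7 did not pass (0.13, SE 0.07, adjusted p = 0.23). The falls were KRT81 and KRT86, hair keratins of near-identical sequence whose counts were not whole in all 6 libraries, with log2 changes of -0.27 and -0.33. Neither passed in the fit of the 6 libraries alone, where adjusted p was 0.082 and 0.076, and over the settings tried these were the highest values, the lowest being 2.9e-06 and 0.00022.

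Of 44 tested junction genes, 5 rose (11.4%, against 11.2% of all genes) and 10 fell (22.7%, against 11.6%), with a median of -0.09. GJB2, the gap junction protein connexin 26, rose 3.45-fold, from 1.52, 0.881 and 1.04 CPM to 4.63, 4.19 and 3.52 CPM. CLDN2, a claudin that forms cation pores, rose 1.75-fold, from 227.1, 202.0 and 178.2 CPM to 393.3, 357.1 and 314.5 CPM. DSP, the desmosomal plakin, rose 1.71-fold, from 337.4, 362.9 and 342.0 CPM to 654.9, 587.1 and 542.5 CPM. CDH1, the main epithelial cadherin, did not pass (log2 0.14, SE 0.06, adjusted p = 0.11), although its groups did not overlap. Without IL4 replicate 1 it passed as a rise (log2 0.17, adjusted p = 0.041). CDH17 and members of the CEACAM family fell. CDH17, the liver-intestine cadherin, fell from 150.5, 165.5 and 176.0 CPM to 77.9, 88.1 and 86.5 CPM (log2 -0.96, SE 0.07, adjusted p = 2.7e-09). CEACAM5, the carcinoembryonic antigen, fell from 55.2, 54.0 and 53.1 CPM to 28.4, 27.7 and 25.3 CPM, and CEACAM6 by a log2 change of -0.83 (SE 0.06). The CEACAM genes are close copies and their counts were not whole in 5 or 6 libraries. TJP3, a tight junction scaffold, fell from 13.1, 8.59 and 9.85 CPM to 7.36, 2.88 and 4.70 CPM. Without IL4 replicate 1, or with the GC correction, 8 junction genes rose, and 6 fell without untreated replicate 2, without untreated replicate 3 or in the fit of the 6 libraries alone.

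Of 45 tested lineage factors and products of lung and gut epithelium, 9 rose (20%) and 13 fell (28.9%), with a median of -0.10. SOX9, a factor of progenitor cells, fell from 67.6, 61.8 and 63.6 CPM to 33.4, 25.9 and 35.7 CPM (log2 -1.02, SE 0.10, adjusted p = 1.3e-07). CREB3L1, a membrane-bound factor that is released by proteolysis, fell from 6.54, 5.94 and 8.06 CPM to 3.95, 2.49 and 2.09 CPM (log2 -1.26, SE 0.23). FOXA1, a pioneer factor of endoderm, fell by a log2 change of -0.64 (SE 0.11). ABCA3, the lipid pump of lamellar bodies in alveolar type II cells, rose from 37.9, 37.3 and 35.8 CPM to 71.7, 55.1 and 55.6 CPM (log2 0.71, SE 0.09, adjusted p = 7.2e-06). It was 1 of only 2 of 10 alveolar type II markers with enough counts to be tested. SFTPA1 and SFTPB had no count in the 6 libraries, SFTPC had 2 counts untreated and 0 with IL4, and NKX2-1 had 1 and 2, so the defining products of that cell type were at or near 0.

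Of 32 tested ion channels and transporters of airway epithelium, 7 rose (21.9%) and 8 fell (25%), with a median of 0.14. After ANO1 the largest rises were those of SLC9A3, a sodium-proton exchanger, and SLC26A2, a sulfate carrier. SLC9A3 rose 8.38-fold but stayed low, from 0.0895, 0.220 and 0.299 CPM to 2.32, 1.96 and 0.783 CPM. SLC26A2 rose 3.68-fold, from 84.4, 87.8 and 80.9 CPM to 240.9, 341.7 and 350.4 CPM, with IL4 replicate 1 the lowest of its group. SLC12A2, the cotransporter that loads chloride into secretory cells, fell from 1132.3, 1173.4 and 1189.7 CPM to 652.5, 825.8 and 795.7 CPM (log2 -0.62, SE 0.08). AQP3, a water and glycerol channel, fell from 49.3, 40.7 and 38.2 CPM to 29.6, 22.7 and 20.5 CPM (log2 -0.83, SE 0.13). CA9, a carbonic anhydrase of the cell surface induced by low oxygen, fell 3.93-fold, from 5.55, 3.30 and 4.18 CPM to 1.499, 0.655 and 1.17 CPM. The 8 falls became 5 in the fit of the 6 libraries alone, with or without IL4 replicate 1.

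Ligands and receptors of the EGF family moved in both directions. Of 33 tested, 10 rose (30.3%) and 7 fell (21.2%), with a median of 0.01. HBEGF, a ligand shed from the cell surface, rose from 4.74, 4.29 and 5.82 CPM to 21.3, 27.1 and 26.0 CPM, 5.07-fold (log2 2.34, SE 0.15, adjusted p = 2.0e-10). EREG, the ligand epiregulin, fell from 129.7, 138.9 and 137.0 CPM to 62.0, 94.8 and 97.8 CPM (log2 -0.67, SE 0.12, and -0.49 without IL4 replicate 1). EGFR rose from 113.7, 126.2 and 120.0 CPM to 184.1, 171.1 and 205.7 CPM (log2 0.64, SE 0.08). ERBB3, the receptor that lacks strong kinase activity, fell from 70.6, 63.6 and 64.5 CPM to 33.7, 24.1 and 20.3 CPM (log2 -1.35, SE 0.17). The early response factor JUN rose 2.34-fold and the phosphatase DUSP1 1.82-fold. The 7 falls became 4 without untreated replicate 3 and in the fit of the 6 libraries alone.

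In the TGF-beta and BMP list, 5 of 40 tested genes rose (12.5%, against 11.2% of all genes) and 15 fell (37.5%, against 11.6%), with a median of -0.16. The inhibitors of differentiation, which are direct BMP targets, fell in 3 cases. ID4 fell from 10.4, 6.61 and 9.70 CPM to 1.91, 3.404 and 2.48 CPM, 3.41-fold (log2 -1.77, SE 0.24). ID2 fell from 49.95, 48.1 and 42.7 CPM to 24.8, 26.1 and 29.6 CPM (log2 -0.81, SE 0.10). ID1 fell from 104.5, 71.3 and 76.6 CPM to 61.9, 51.1 and 38.2 CPM (log2 -0.75, SE 0.21, adjusted p = 0.024), and lost its call without untreated replicate 1, IL4 replicate 2 or IL4 replicate 3, with no filter on low counts, and in the 6 libraries without IL4 replicate 1, where adjusted p was 0.059 to 0.10. The ligand BMP4 fell from 27.9, 27.3 and 27.8 CPM to 18.3, 16.8 and 14.1 CPM (log2 -0.76, SE 0.13). FSTL3, a secreted binder of activin, rose 2.27-fold, from 48.6, 42.8 and 41.5 CPM to 112.6, 96.4 and 94.7 CPM. TGFB1 rose from 75.8, 77.4 and 71.2 CPM to 127.1, 91.4 and 97.6 CPM (log2 0.49, SE 0.10, and 0.33 without IL4 replicate 1). The 5 rises became 3 without untreated replicate 3 or IL4 replicate 2, and the fit of the 6 libraries alone gave 2 rises and 9 falls.

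Cell division genes fell together. Of 69 tested genes of mitosis and the spindle, 61 fell (88.4%, against 11.6% of all genes) and none rose (against 11.2%). The median log2 change was -0.62, and in none of the settings tried did the 61 move by more than 1.5 times. TTK, the spindle checkpoint kinase, fell from 19.1, 24.99 and 25.5 CPM to 10.2, 10.998 and 13.4 CPM (log2 -0.99, SE 0.15). CDK1, the kinase that starts mitosis, fell from 68.0, 57.5 and 60.5 CPM to 28.2, 37.2 and 35.4 CPM (log2 -0.89, SE 0.11). MKI67, a protein of dividing cells, fell from 221.8, 229.8 and 228.4 CPM to 160.8, 144.9 and 140.1 CPM (log2 -0.61, SE 0.07). All IL4 libraries lay below all untreated ones for these 3 genes, which the naming rule required for TTK. CDK1 and MKI67 were chosen after their values were seen. SGOL1, the protector of centromere cohesion, had the largest fall of the list, 2.03-fold, and the topoisomerase TOP2A fell 1.54-fold.

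Of 61 tested DNA replication genes, 30 fell (49.2%, against 11.6% of all genes) and none rose, with a median of -0.40. RFC3, a subunit of the clamp loader, fell from 39.6, 32.7 and 33.3 CPM to 18.5, 20.6 and 19.7 CPM (log2 -0.85, SE 0.13). PCNA, the sliding clamp it loads, fell from 196.0, 172.1 and 166.3 CPM to 108.6, 117.8 and 104.5 CPM (log2 -0.69, SE 0.07). The replicative helicase subunit MCM2 fell by a log2 change of -0.59 (SE 0.15). The replication counts depended more on single libraries than the mitotic ones: 19 fell without untreated replicate 1 and 18 in the fit of the 6 libraries alone, while 1 gene rose when either IL4 replicate 2 or 3 was left out and with the replicate block, in both fits.

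Interferon-induced and antigen presentation genes were raised in many cases, and the labels list no interferon among the treatments. Of 54 tested interferon-induced genes, 30 rose (55.6%) and 1 fell (1.85%), with a median of 0.38. APOL1, an apolipoprotein with a trypanosome-killing activity, rose from 3.13, 2.64 and 1.94 CPM to 13.9, 12.7 and 12.5 CPM, 4.89-fold (log2 2.29, SE 0.17, adjusted p = 2.3e-09). IRF1, a transcription factor of the interferon response, rose from 10.3, 9.47 and 10.3 CPM to 24.5, 23.3 and 24.8 CPM (log2 1.27, SE 0.10). OAS1, a sensor of double-stranded RNA, was the gene that fell, from 52.3, 47.3 and 46.9 CPM to 38.2, 37.8 and 36.9 CPM (log2 -0.38, SE 0.09). The 30 rises became 18 without untreated replicate 1, and 2 fell without IL4 replicate 3. CXCL10, a chemokine strongly induced by interferon, had no count in the 6 libraries.

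Of 30 tested antigen presentation genes, 15 rose (50%) and none fell, with a median of 0.40. B2M, the light chain of class I molecules, rose from 172.1, 183.4 and 168.5 CPM to 257.0, 323.9 and 311.6 CPM (log2 0.77, SE 0.07, adjusted p = 7.9e-08). PSMB8, a subunit of the immunoproteasome, rose from 8.42, 9.14 and 7.76 CPM to 17.9, 17.5 and 16.8 CPM (log2 1.04, SE 0.12). The peptide transporter TAP1 rose by a log2 change of 0.55 (SE 0.10). UBD, a ubiquitin-like protein also named FAT10, rose from 0, 0.220 and 0.448 CPM to 2.73, 3.54 and 2.74 CPM, 14.8-fold (log2 3.89, SE 0.57, 3.19 without untreated replicate 1 and 4.73 without untreated replicate 3).

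Of 26 tested complement and acute phase genes, 11 rose (42.3%) and 4 fell (15.4%), with a median of 0.21. C3, the central complement protein, rose from 70.6, 75.2 and 73.9 CPM to 384.3, 335.7 and 336.7 CPM, 4.81-fold (log2 2.27, SE 0.07, adjusted p = 1.3e-15). CFI, the protease that inactivates C3b, rose from 4.92, 6.16 and 6.42 CPM to 29.3, 30.2 and 27.8 CPM, 5.06-fold (log2 2.34, SE 0.14). The plasma metal carriers TF, transferrin, and CP, ceruloplasmin, fell 2.86-fold and 2.17-fold. CP went from 82.4, 91.9 and 102.1 CPM to 39.9, 40.3 and 46.4 CPM (log2 -1.12, SE 0.11). The 11 rises became 7 in the fit of the 6 libraries alone.

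In the arachidonate pathway, ALOX15 and ALOX5 rose while PLA2G4A and PTGS2 fell. Of 35 tested genes, 6 rose (17.1%) and 11 fell (31.4%), with a median of 0.06. ALOX5, the 5-lipoxygenase of leukotriene synthesis, rose from 0.537, 1.10 and 0.746 CPM to 2.04, 2.49 and 2.09 CPM, 2.79-fold (log2 1.48, SE 0.32, adjusted p = 0.0019). PLA2G4A, the phospholipase that releases arachidonate, fell from 232.4, 235.7 and 243.9 CPM to 107.4, 121.8 and 111.9 CPM (log2 -1.06, SE 0.07, adjusted p = 4.0e-10). PTGS2, the inducible cyclooxygenase, fell from 711.4, 804.7 and 827.0 CPM to 308.2, 364.6 and 399.9 CPM (log2 -1.13, SE 0.08). All 3 were separated without overlap, as the naming rule required. AKR1B1, an aldose reductase that also makes prostaglandin F, rose from 1226.9, 1190.7 and 1092.4 CPM to 2458.8, 2528.0 and 2365.7 CPM (log2 1.07, SE 0.05). The counts in this list rested on single libraries: 3 rose without IL4 replicate 3 or with no filter, while 6 fell without untreated replicate 2 and 7 when untreated replicate 3 or IL4 replicate 2 was left out. The fit of the 6 libraries alone gave 3 rises and 5 falls, or 7 falls with the replicate block.

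Among 20 tested NADPH oxidase and peroxide genes, 9 rose (45%) and 3 fell (15%), with a median of 0.10. DUOXA1, the maturation factor of the DUOX1 oxidase, had 1 count untreated and 17 with IL4 (ratio 20.2, 95% exact counting interval 3.17 to 846). DUOXA2, the maturation factor of DUOX2, had 0 counts untreated and 5 with IL4. Neither was tested. GPX4, which reduces lipid peroxides, rose from 77.2, 63.7 and 68.5 CPM to 146.2, 106.7 and 104.9 CPM (log2 0.77, SE 0.10, and 0.59 without IL4 replicate 1). GPX2, the gastrointestinal glutathione peroxidase, fell from 746.5, 630.6 and 600.5 CPM to 466.4, 411.2 and 350.1 CPM (log2 -0.69, SE 0.09). PRDX1, a peroxiredoxin, fell by a log2 change of -0.31 (SE 0.06).

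Changes in genes of the ribosome and the respiratory chain were small in size. None of 79 cytosolic ribosomal protein genes rose and 7 fell (8.86%, below the 11.6% of all genes), with a median of -0.08. The number that fell was unstable, from 1 to 12 with a library left out, 3 with RLE or upper-quartile scaling or with no filter, 11 with the replicate block, 23 with the GC correction and 0 in the fit of the 6 libraries alone (2 there with the block, and 1 there without IL4 replicate 1). RPL7 had the largest fall, a log2 change of -0.23 (SE 0.05, adjusted p = 0.0029). It did not pass in the fit of the 6 libraries alone, and its adjusted p ran from 0.00091 to 0.097 over the settings tried. Of 77 nuclear genes for the respiratory chain and ATP synthase, 23 rose (29.9%) and none fell, with a median of 0.16, and 9 rose in the fit of the 6 libraries alone. UQCRC1, a core subunit of complex III, rose from 96.7, 81.6 and 79.6 CPM to 143.1, 125.6 and 126.5 CPM (log2 0.61, SE 0.08). ATP5B, the catalytic ATP synthase subunit, rose by a log2 change of 0.37 (SE 0.05). NDUFS7 and NDUFS8 of the same list passed as rises, with log2 changes of 0.51 (SE 0.17) and 0.42 (SE 0.12). Without IL4 replicate 1 neither passed, with 0.21 (adjusted p = 0.31 by edgeR's quasi-likelihood test) and 0.22 (0.079). The list's median departure of IL4 replicate 1 was 0.13 log2 units, and its median change without that library was 0.12.

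**Figure D5:**
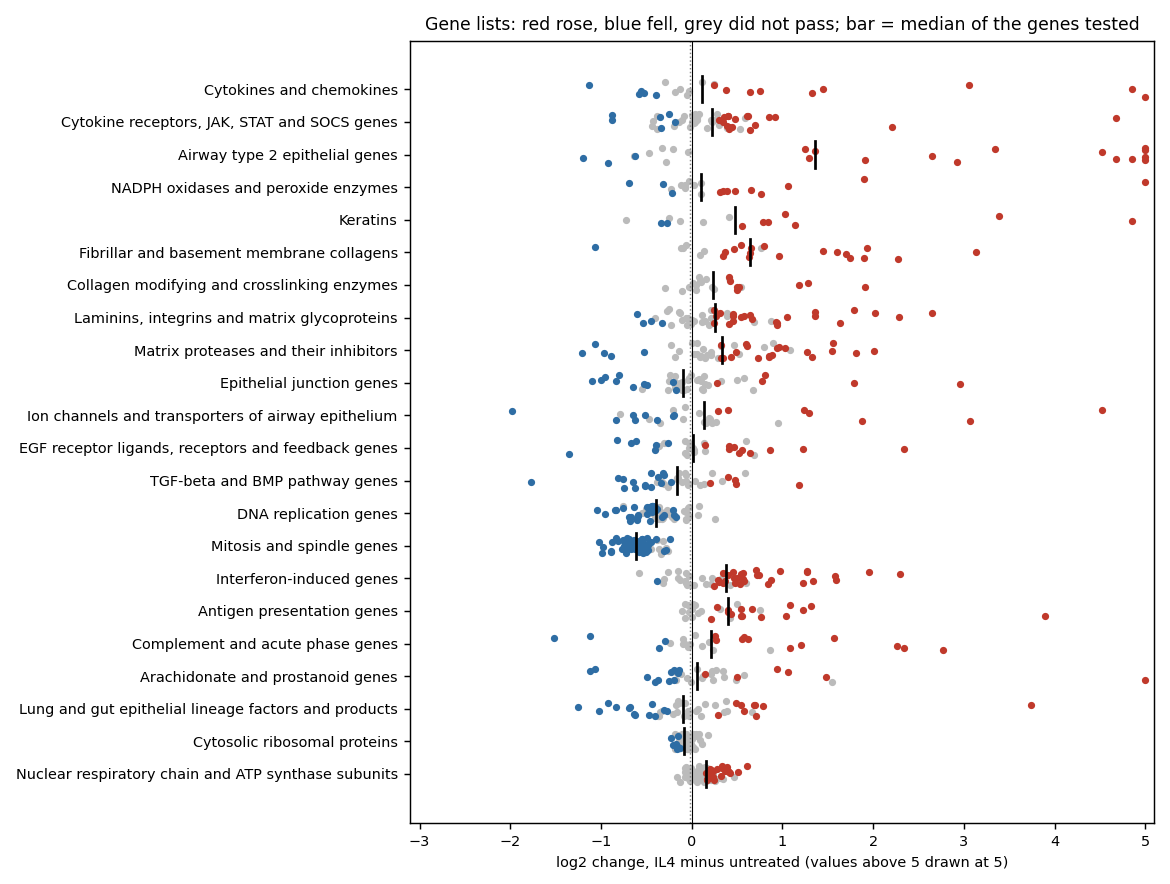
Log2 change with IL4 (x axis, values above 5 drawn at 5) of each tested member of 22 gene lists (rows). Red points rose, blue points fell, grey points did not pass, and the black bar is the median of the tested members, from -0.62 for mitosis and spindle genes to 1.36 for airway type 2 genes.

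The genes that fell furthest were of several kinds. CNTNAP2, a neurexin-like adhesion protein, had the largest fall, from 8.15, 8.04 and 9.11 CPM to 0.545, 1.31 and 1.04 CPM, 8.52-fold (log2 -3.09, SE 0.31, adjusted p = 2.2e-07). RASD1, a small GTPase induced by glucocorticoids, fell 4.40-fold, from 4.66, 4.84 and 4.63 CPM to 0.681, 1.31 and 1.17 CPM. SLC51B, a subunit of a bile acid and steroid exporter, fell 4.20-fold, from 11.5, 10.2 and 10.7 CPM to 4.36, 2.23 and 1.17 CPM, and its log2 change of -2.07 was -2.66 without IL4 replicate 1. ALB, serum albumin, fell 4.59-fold, from 1.52, 1.76 and 2.54 CPM to 0.273, 0.524 and 0.391 CPM. F5, coagulation factor V, fell 2.68-fold, from 12.2, 12.6 and 12.2 CPM to 4.77, 4.84 and 4.17 CPM. SERPINA6, the carrier of cortisol, fell 3.29-fold, and the iron carrier TF, given above, fell 2.86-fold. ANGPT1, a ligand of the endothelial receptor TIE2, fell 3.14-fold (log2 -1.65, SE 0.25). HGF, hepatocyte growth factor, fell 3.89-fold, from 1.61, 1.54 and 1.64 CPM to 0.818, 0.131 and 0.261 CPM, and its log2 change of -1.96 was -2.93 without IL4 replicate 1. EPHB3, an ephrin receptor, fell 3.57-fold, from 9.76, 8.70 and 7.46 CPM to 1.91, 2.62 and 2.74 CPM. IL17RB, the receptor chain for the type 2 cytokine IL25, fell 3.18-fold, from 2.42, 2.53 and 1.79 CPM to 0.409, 0.786 and 0.913 CPM.

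The most reads gained and lost fell on abundant genes, an order that also depends on transcript length. The largest gains in CPM were those of KRT8 and KRT18, then CTSL. KRT8 went from 3168.3, 2731.7 and 2620.2 CPM to 5638.7, 4664.8 and 4363.8 CPM. KRT18 went from 2470.9, 2261.2 and 2349.1 CPM to 4640.1, 4112.5 and 3947.1 CPM. FLNA, an actin crosslinker, rose 1.83-fold, from 1578.9, 1536.8 and 1542.6 CPM to 3159.3, 2663.5 and 2724.3 CPM. SCD, the stearoyl-CoA desaturase, rose 1.40-fold. In KRT8, KRT18 and FLNA, IL4 replicate 1 was the highest library. The largest loss was that of AKR1B10, an aldo-keto reductase, from 8532.6, 8437.7 and 8184.6 CPM to 7062.9, 7067.9 and 7082.7 CPM (log2 -0.25, SE 0.04), with counts that were not whole in all 6 libraries. NQO1, a quinone reductase, fell from 2723.9, 2758.1 and 2731.3 CPM to 2045.3, 2118.3 and 2145.9 CPM (log2 -0.38, SE 0.04). TM4SF20, a tetraspan membrane protein, fell 2.44-fold, from 726.3, 729.4 and 722.0 CPM to 263.3, 313.8 and 316.9 CPM. SLC38A2, a carrier of small neutral amino acids, fell from 1132.9, 1272.6 and 1319.3 CPM to 606.3, 894.8 and 949.9 CPM (log2 -0.60, SE 0.13), with IL4 replicate 1 the lowest library (-0.43 without it).

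Markers of the line and of other cell types were read alongside. All 16 A549 and epithelial line markers could be tested, and their summed level was 48941 to 49928 CPM untreated and 48177 to 48882 CPM with IL4. Of them 4 rose (25%, against 11.2% of all genes) and 8 fell (50%, against 11.6%). The 8 became 5 without untreated replicate 2 or IL4 replicate 2, and the fit of the 6 libraries alone gave 2 rises and 3 falls. Of 18 immune cell markers 2 could be tested and 12 had no count, the pan-leukocyte gene PTPRC among them. The summed immune level was 12.0 to 16.3 CPM untreated and 17.9 to 24.8 CPM with IL4, most of it from CD68, a lysosomal protein also made by other cells, which rose from 10.1, 10.7 and 13.4 CPM to 21.1, 16.2 and 15.7 CPM. Without IL4 replicate 2 both tested immune markers rose. Of 12 fibroblast and muscle markers 6 could be tested and 2 rose (33.3%, against 11.2% of all genes), COL1A1 and TAGLN, an actin-binding protein that went from 0.806, 1.10 and 0.746 CPM to 3.95, 4.58 and 3.52 CPM. Their summed level was 23.8 to 25.6 CPM untreated and 36.4 to 47.0 CPM with IL4, while COL1A2, the partner chain of type I collagen in fibroblasts, had no count in any of the 6 libraries and DCN had 1 count untreated and 2 with IL4. The endothelial marker ESAM rose from 0.537, 0.991 and 0.448 CPM to 4.36, 2.49 and 3.13 CPM, the only 1 of 9 in its list to be tested, and the summed level of the 9 was 0.597 to 1.43 CPM untreated and 2.62 to 5.18 CPM with IL4. The endothelial genes CDH5 and KDR were at 0 in all 6 libraries. Of 14 markers of ciliated, basal and neuroendocrine cells 4 could be tested, none rose and 2 fell (50%, against 11.6% of all genes), or 1 without untreated replicate 2. Their summed level was 22.7 to 25.5 CPM untreated and 14.4 to 17.3 CPM with IL4. Ribosomal RNA genes took 1.55% to 2.15% of counts untreated and 0.984% to 1.38% with IL4, and its part in any change was not tested.

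IL4 with a control siRNA is the nearest group to IL4 alone, and the labels do not give the dose of that siRNA. It was set against the same 3 untreated libraries, so the values of the 2 comparisons are not independent and are only given side by side. CCL26 was at 91.96, 95.2 and 81.1 CPM with control siRNA, and its log2 change was 6.81 there and 6.94 with IL4 alone. CISH was at 26.9, 34.8 and 28.6 CPM, with 4.29 against 4.67. DUOX2 was at 10.1, 11.3 and 8.41 CPM, which overlaps IL4 alone, and ALOX15 at 3.90, 3.56 and 3.25 CPM, all below the lowest library of IL4 alone. For IL11 the log2 changes were 3.202 with control siRNA and 3.06 with IL4 alone, for COL5A1 2.33 and 2.27, for HAS3 3.54 and 3.91, and for C3 2.25 and 2.27. For CNTNAP2 they were -2.82 and -3.09, for PLA2G4A -0.94 and -1.06, for TTK -0.87 and -0.99, and for ALB -3.16 and -2.20. These genes were not picked by a rule and do not stand for all. Some genes called with IL4 alone did not pass with control siRNA. Among them were SLC9A3 with 1.98 and 3.07, CD68 with 0.20 and 0.65, COL21A1 with -0.52 and -1.07, and SLC38A2 with -0.32 and -0.60. Others changed more with control siRNA, such as EGFR with 0.89 and 0.64 and AKR1B1 with 1.29 and 1.07. The median over the mitosis list was -0.69 with control siRNA and -0.62 with IL4 alone, and over the airway type 2 list 1.23 and 1.36. Genes whose change was smaller without IL4 replicate 1 are listed in the same way: TGFB1 had 0.43 with control siRNA, GPX4 0.56 and KRT8 0.66, against 0.49, 0.77 and 0.78 with IL4 alone.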

How the data were processed

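RNA-seq of A549 cells was taken from a deposited table of expected counts, the estimated reads per gene that the authors made with Bowtie2 2.1.0 and RSEM 1.2.15 on hg38, per the submitters' processing notes. No source used here gives the gene annotation or the strand setting. Of 26475 genes, 7860 had no count in any library, and 3.63% to 4.19% of values per library were not whole, which marks reads shared between genes.

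Counts were rounded and filtered by filterByExpr, which left 12795 genes. TMM factors scaled all 15 libraries, which shared a fit in edgeR 4.0.16 (robust quasi-likelihood test, 1 coefficient per group, R 4.3.3), with Benjamini-Hochberg adjustment over all genes tested and a 0.05 threshold. Variation between replicates, as edgeR's common coefficient, came to 0.0731. The SE is the absolute log2 change divided by the square root of F. The fit was tested on simulated data. The reported fit has no replicate block. Deviations of same-numbered untreated and IL4 libraries correlated at 0.50, 0.23 and 0.32 across genes, which are not independent, so the block is given beside a result it changes. The pairing comes from the data, not from the labels, and is not clear: untreated replicate 2 correlated more with IL4 replicate 3, at 0.33, than with its own number. Alternatives were DESeq2 1.42.0, upper-quartile and RLE scaling, a filter of 1 CPM in 3 libraries or none, unrounded counts, a replicate block, the 6 compared libraries alone, a correction for transcript GC content (loess span 0.3, a value for 95.1% of genes), and each library left out. A fit of the 6 libraries without IL4 replicate 1 was added after seeing the data.

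Genes were named by rule: the 4 markers, the 20 highest and 20 lowest log2 changes among called genes at 1 CPM or more in a group whose groups did not overlap, the 8 largest gains and losses in CPM, up to 3 members of each list in each direction, the 8 genes highest and 8 lowest in IL4 replicate 1, and the receptor genes. Others, CST1 among them, and the untested genes were chosen after their values were seen. The libraries and 28 gene lists were chosen with earlier results of these data known. Ratios for genes with 1 to 3 untreated counts carry exact 95% intervals. Promoter windows are from RefSeq (GRCh38.p14). Some genes that met the rule are not reported here.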

Additional observations from a re-analysis of the deposited data

How the results depend on the processing

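Single settings moved both the number of calls and their split. Rises were 45.4% of calls with the GC correction and 60.6% with only the 6 untreated and IL4 libraries. The 2925 calls (1435 rises, 1490 falls) became 1466 (889 and 577) when only the 6 untreated and IL4 libraries were fitted. With the replicate block in that 6-library fit there were 2592 calls, and with the block in the fit of all 15 libraries 3363 (1597 and 1766). Apart from the list counts given with the block beside them, it moved no other count by more than 1.5 times, and it ended no call of a named gene in the fit of all libraries. Leaving out 1 library gave 1982 to 3311 calls, 1182 to 1597 rises and 800 to 1714 falls, the fewest falls being 800 without untreated replicate 2 and 896 without untreated replicate 3. The calls of at least 2-fold ran from 346 to 415 in those fits, against 358. DESeq2 gave 1303 rises and 1120 falls, and the GC correction 1546 and 1858, of which 2420 were shared with the reported calls. Of 182 named genes that passed, 33 lost their call in at least 1 of 17 settings and none changed sign. In the fit of the 6 libraries alone 151 kept it and 24 lost it, and 10 lost it without IL4 replicate 1. The remaining named genes had no adjusted p in that 6-library fit. A gene without a value in a setting was not counted as lost there. With 3 libraries a group, genes of few counts are called or not called by small shifts.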
